A study of Mus musculus with 4 samples.

Results

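Endothelial cells, the cells that line blood vessels, were recovered among cells sorted as astrocytes from the mouse spinal cord. They were chosen from the kept cells (more than 500 and fewer than 50000 gene UMIs, the counts of distinct RNA molecules) by a UMI in at least 3 of 7 endothelial genes, Cldn5, Flt1, Ly6c1, Slco1a4, Ptprb, Adgrl4 and Cdh5, and fewer than 5 UMIs of C1qa, C1qb and C1qc summed. This gave 97 of 5038 kept cells, of which 71 came from the injured and 26 from the uninjured condition. The animals carried Cx30-CreERT2 and a Cre-dependent tdTomato reporter at the R26R locus, received tamoxifen, and were injected in the blood with AAV-PHP.eB particles that carried 23 barcoded enhancers. Injured animals were sampled 3 days after a contusion of the thoracic cord, the controls carried the same alleles and the same virus without injury, and tdTomato-positive cells were sorted from 5 mm of cord. Each condition pooled 1 to 2 animals of each sex into 1 gene expression library and 1 barcode library, so every difference between conditions compares 1 library with 1 library and has no replicate check. The Cx30 promoter, which drives the Cre, belongs to an astrocyte gap junction gene, so the cells described here are those that entered this sort and are not a sample of the cord endothelium.

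Endothelial cells of the brain and spinal cord form the blood-spinal cord barrier. They are sealed by tight junctions, use selective transporters to exchange nutrients with the tissue, and are kept in this state by Wnt signals from their surroundings. Arteries, capillaries and veins differ in the genes of their endothelium, and leukocytes leave the blood mainly through small veins. In growing vessels, tip cells lead the sprout, secrete angiogenic factors and lay down new basement membrane.

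The injured cells held 847759 gene UMIs, with a median of 8304 per cell and a range of 863 to 47516. The uninjured cells held 106007, with a median of 3138 and a range of 1565 to 8310. Levels are therefore given as UMIs summed over the cells of a library per 1000000 gene UMIs (CPM), and differences as log2 ratios of injured over uninjured CPM after adding 10 CPM to both. This scale understates the change of low genes. Intervals are 95% intervals for counting error only and do not cover differences between animals. In the injured library 40 of 919 cells were removed at the upper UMI limit, while the uninjured library lost none of its 4159 cells. The files shared 7 cell barcodes, none of them in an endothelial cell. Of the injured endothelial cells 28 were scored female (Xist and no Y-linked UMI), 21 male and 22 neither. The uninjured cells held 14 male cells, 12 scored neither and 0 female. At a floor of 3 cells this allows up to 11.5% of the uninjured cells to score female, and the sex of the 12 unscored cells is not known. Injury and sex of the recovered cells can thus not be told apart except in the male cells.

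The 7 genes of the rule describe the cells and are not a finding. All 7 had a UMI in 50 injured and 15 uninjured cells, and 64 injured and 23 uninjured cells had at least 6 of them. Just inside the limit were 2 injured cells with 3 markers, and just outside it were 12 injured cells with 2 markers. The uninjured library held no cell with 2, 3 or 4 markers. Cldn5, the main claudin of the barrier, stood at 3048 and 4585 CPM in injured and uninjured cells. Pecam1, a junctional adhesion molecule outside the rule, was found in 66 of 71 injured and 23 of 26 uninjured cells, and Ly6a, the receptor that AAV-PHP.eB is known to use on mouse brain endothelium, in 69 and 26 cells. Lymphatic genes were scarce, since Prox1, Lyve1, Flt4 and Pdpn summed to 77.9 CPM in injured cells and 18.9 CPM in uninjured cells. Of genes outside the rule, Pecam1 and Ly6a were thus found in most cells.

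In some cells the marker list of another class had more UMIs than the endothelial list. In the injured library these were 2 cells led by fibroblast genes, 1 by red cell genes and 1 by microglia genes, together 13.8% of the endothelial gene UMIs. Both fibroblast-led cells had only 3 of the 7 markers and alone held 10.4% of the UMIs. In the uninjured library 1 cell was led by genes of mural cells, the pericytes and muscle cells around vessels, and 1 by red cell genes, together 13.2%. The fibroblast list summed to 1690 CPM in injured and 75.5 CPM in uninjured endothelial cells, the microglia list to 474 and 9.43 CPM, and the mural list to 149 and 1009 CPM. Without the cells led by other lists there remained 67 injured cells (730377 gene UMIs) and 24 uninjured cells (92059). Apart from the barcode ratios, values without the cells of other lists are given below wherever the result rests on them. No doublet caller was run. Astrocyte genes were also unequal between conditions. The 10 astrocyte markers summed to 137 CPM in injured and 623 CPM in uninjured endothelial cells, they had a UMI in 31 and 15 cells and reached 20 and 38 UMIs in 1 cell, and 3 and 1 of the markers were at 0. They were at 5126 and 13345 CPM in the other cells of the respective libraries.

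**Figure D1:**
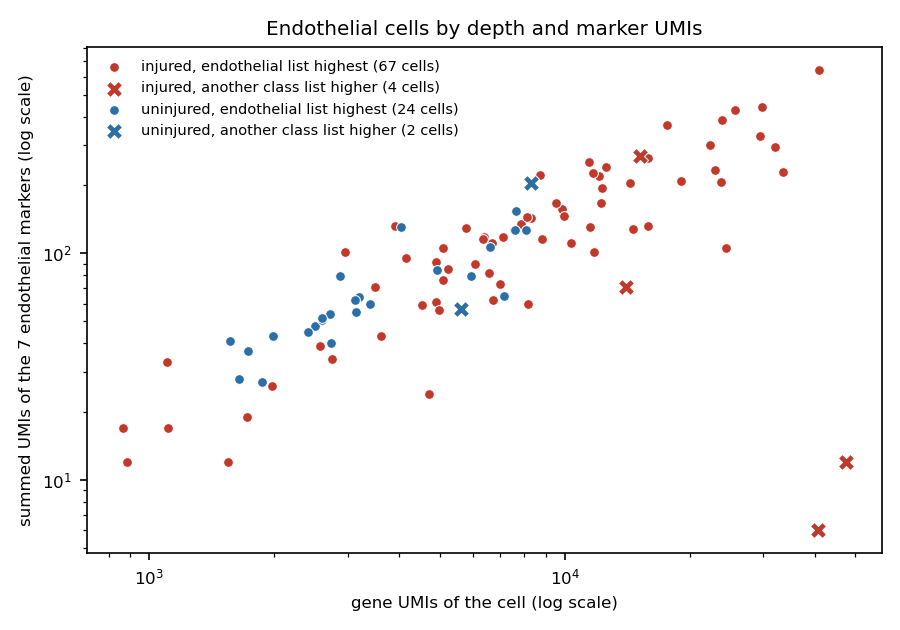
Each point is 1 of the 97 endothelial cells, placed by its gene UMIs (horizontal log axis) and the summed UMIs of the 7 marker genes (vertical log axis), in red for the injured and blue for the uninjured library. Crosses mark the 4 injured and 2 uninjured cells in which another class's list had more UMIs, and the crosses at the lower right are the fibroblast-led cells with 3 markers.

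Endothelial cells made up 8.08% of the kept injured cells (71 of 879, exact interval 6.36 to 10.1%) and 0.625% of the kept uninjured cells (26 of 4159, 0.409 to 0.915%). These are shares of sorted cells, which the sort, the number of astrocytes recovered and the UMI limits can set, and they do not measure the number of vessels. The reporter transcript, measured as the added feature tdTomato-WPRE, was present at a lower level than in astrocytes of the same library. Injured endothelial cells held 337 UMIs of it (398 CPM, interval 356 to 442), found in 51 of 71 cells, and uninjured cells held 29 UMIs (274 CPM, 183 to 393), found in 9 of 26. A fibroblast-led cell held 165 of the 337 UMIs, and without the cells of other classes the order was the reverse, with 190 CPM after injury and 250 CPM without. Injured astrocytes stood at 1668 CPM, fibroblasts at 1857 CPM and microglia, in which the Cx30 promoter is not known to be active, at 38.5 CPM. Uninjured astrocytes stood at 416 CPM and fibroblasts at 1191 CPM, and uninjured microglia had 0 UMIs (interval up to 32.8 CPM). With each cell thinned to 1000 gene UMIs, 17.4% of injured endothelial cells (12 of 69, 9.32 to 28.4%) kept a UMI, against 64.6% of astrocytes (266 of 412, 59.7 to 69.2%) and 0.935% of microglia (1 of 107, 0.0237 to 5.1%). In the uninjured library it was 11.5% of endothelial cells (3 of 26, 2.45 to 30.2%) and 33.0% of astrocytes (1245 of 3772, 31.5 to 34.5%). Gjb6, the gene of Cx30 itself, had 0 UMIs in injured and 1 in uninjured endothelial cells, against 337 and 633 CPM in astrocytes. The viral reporter also carries a WPRE element, and whether its reads entered the tdTomato-WPRE feature was not tested.

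Across the 3845 genes with a mean of at least 50 CPM over both conditions (the 7 rule genes and the C1q genes left out), 207 were higher (5.38% of the ranked genes) and 248 were lower (6.45%) in injured endothelial cells by at least 2-fold on the log2 ratio scale. The median ranked gene had a log2 ratio of -0.13, and over all 14363 genes with a UMI the median was 0.16. Higher genes were 45.5% of the calls, but this split was not stable. It was 58.4% with ratios centred on the median, 57.0% without the level filter, 63.2% at 200 CPM or more, 55.7% with 50 CPM added, 64.9% without the cell with most UMIs of each gene, and 34.8% with cells thinned to 1000 UMIs. In the astrocytes of the same libraries 491 of 3688 ranked genes were higher (13.3%) and 314 were lower (8.51%). A gene can pass the level filter through its high condition alone, and such a gene had to differ, so counts over the ranked members of the lists below are a description only.

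Of the 15 genes with the highest ratios, 10 left this list when the cells of other classes were left out. These were the fibroblast and matrix genes Col3a1, Col1a1, Lum, Bgn, Col1a2 and Dcn, the myeloid genes Lyz2 and Chil3, Spp1 (osteopontin) and Lgals1 (a galectin). Lgals1 fell only to rank 16, with a log2 ratio of 2.36 from 71 UMIs and 1 UMI (ratio 8.95, 1.56 to 358). Col3a1 was at 373 CPM in injured cells with them and 4.11 CPM without, and all 180 Chil3 UMIs lay in the 1 microglia-led cell. The genes that remained were S100a6, Xist, Adm, Pgf and Ptgs2. S100a6, a small calcium-binding protein, had 1091 UMIs in 39 of 71 injured cells (1287 CPM) and 0 UMIs in 26 uninjured cells, which made it at least 45.5-fold higher against a floor of 3 counts over the group. Without the cells of other classes it had 542 UMIs (742 CPM) and was at least 22.8-fold higher. It was also higher in injured astrocytes, with a log2 ratio of 5.76. Ptgs2, the inducible cyclooxygenase, had 87 UMIs in 21 injured cells (103 CPM) and 0 in uninjured cells, at least 3.63-fold higher, and its log2 ratio in astrocytes was 0.13. Xist was at 216 CPM and 0, beside the 28 and 0 female cells of the libraries.

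Without the cells of other classes the highest 15 also held genes chosen here after their values were seen. Hif1a, the oxygen-regulated factor, had 194 UMIs in 51 of 71 injured cells (229 CPM) and 2 UMIs in 2 of 26 uninjured cells (18.9 CPM), a ratio of 12.1 (3.31 to 101). It was 212 against 21.7 CPM without the other classes, and its log2 ratio in astrocytes was -0.78. Adgrl3, a latrophilin, was at 495 and 94.3 CPM with a ratio of 2.28 on the log2 scale. Ccn2, a matrix-associated growth regulator, was at 99.1 and 9.43 CPM, from 84 UMIs and 1 UMI. In male cells the log2 ratio of Ccn2 was 0.70, short of 2-fold, and those of Hif1a and Adgrl3 were 3.40 and 1.56.

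The 15 genes with the lowest ratios held several astrocyte genes. Slc1a2, the glial glutamate transporter, was at 2.36 and 170 CPM in injured and uninjured cells (2 and 18 UMIs, and 16 of the 18 lay in 1 cell). Gpr37l1 and Aldoc, both astrocyte genes, were at 2.36 CPM in injured cells and at 170 and 151 CPM in uninjured cells. Atp1b2, Gpc5, Npas3, Lsamp, Mdga2 and Trpm3, which lay between 1225 and 11215 CPM in astrocytes, and the transcript Gm9946 had log2 ratios between -3.24 and -2.46. These values stand beside the difference in summed astrocyte markers given above, and the part of free astrocyte RNA or of attached astrocyte pieces in these values was not tested. Vtn and Atp13a5, pericyte genes, were at 557 and 104 CPM in uninjured cells, and at 21.7 and 10.9 CPM there without the cells of other classes. Alpl and Sema3g, also on this list, are arterial genes and are described next.

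Several arterial genes had lower levels in the injured endothelial cells. Of 10 ranked members of the arterial list 7 were lower by at least 2-fold, where 6.45% of all ranked genes were, and 0 were higher. Of the 7, Alpl, Sema3g, Bmx, Gkn3, Stmn2 and Clu were below 50 CPM in injured cells and were ranked only through their uninjured level, so the level filter fixed part of this count. The list median was -1.34 over its 19 members with a UMI. Alpl, an alkaline phosphatase of arterial endothelium in the brain (chr4:137741733-137796384, minus strand, GRCm38), had 12 UMIs in 7 injured cells (14.2 CPM) and 24 UMIs in 9 uninjured cells (226 CPM), a ratio of 0.0625 (0.0285 to 0.13). Sema3g, a semaphorin of arteries, was at 9.44 and 132 CPM, a ratio of 0.0715 (0.026 to 0.183). Bmx, an arterial tyrosine kinase, and Gkn3, a marker of brain arteries, were at 13.0 and 14.2 CPM in injured cells and at 113 and 94.3 CPM in uninjured cells. Stmn2 and Clu were at 44.8 and 26.0 CPM in injured cells, against 198 and 113 CPM. Cxcl12, a chemokine that endothelial cells hold on their surface, was the most abundant member, with 899 UMIs in 57 injured cells (1060 CPM) and 286 UMIs in 25 uninjured cells (2698 CPM), a ratio of 0.393 (0.344 to 0.451). Mgp, Edn1 and Dll4 had log2 ratios between -0.78 and 0.02, but Mgp was at -1.07 without the cells of other classes. Without the cells of other classes 7 of 9 ranked members were lower, Mgp among them, where 7.1% of all ranked genes were lower. The list median was then -1.57. In astrocytes the log2 ratios of Stmn2 and Clu were 1.86 and 2.42.

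With cells thinned to 1000 gene UMIs, at least 3 arterial genes were found in 4 of 69 injured cells (5.8%) and in 6 of 26 uninjured cells (23.1%), and the cell with most arterial genes had 8 of them in the injured and 11 in the uninjured library. In the injured library 1 cell of 5089 gene UMIs held 4 of the 8 Sema3g, 4 of the 12 Alpl and 7 of the 12 Gkn3 UMIs. Among male cells the list median was -0.40, while Alpl (-3.26), Sema3g (-3.71), Bmx (-2.78), Gkn3 (-2.47), Stmn2 (-1.93) and Cxcl12 (-1.24) stayed below -1 and Clu was at -0.40. Sox17, a transcription factor of arterial endothelium and a Wnt target, was at 165 and 462 CPM, with a log2 ratio of -1.43. The Notch list, whose pathway sets arterial fate, had 4 ranked members between -0.78 and -0.47, none called, and a median of -0.57.

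Venous genes had a median of 0.79. Of 13 ranked members 4 were higher, where 5.38% of all ranked genes were, and 1 was lower. Lrg1 was below 50 CPM in uninjured cells and Selp, the lower member, in injured cells. Each was ranked only through its high condition. In male cells the median was 0.68, Slc38a5 (2.88) and Lrg1 (1.70) stayed above 1, and Tmsb10 (0.88) and Il1r1 (0.73) did not. Tmsb10, an actin-binding thymosin, had 2063 UMIs in 68 injured cells (2433 CPM) and 101 UMIs in 18 uninjured cells (953 CPM), a ratio of 2.55 (2.09 to 3.15), and was also higher in astrocytes (log2 ratio 3.09). Lrg1, a secreted glycoprotein that modifies TGF-beta signals in vessels, had 120 UMIs in 11 injured cells (142 CPM) and 1 UMI in uninjured cells (9.43 CPM), a ratio of 15 (2.64 to 598). Il1r1, the receptor of interleukin-1, was at 179 and 66.0 CPM, and Slc38a5, a glutamine transporter, at 206 and 94.3 CPM. Vwf and Nr2f2, the clotting factor carrier and the factor that sets venous fate, lay just under 2-fold with log2 ratios of 0.96 and 0.98. Selp, a leukocyte adhesion selectin, was the lower member, but it rested on 3 cells. In the injured library 2 cells held 12 and 10 UMIs, and in the uninjured library 1 cell held all 11, as well as all 8 Ackr1 UMIs, 18 of 20 Vcam1 UMIs and 27 of 31 Icam1 UMIs. Without the top cell of each library the log2 ratio of Selp was 1.16. At 1000 gene UMIs, at least 3 venous genes were found in 30 of 69 injured cells (43.5%) and 2 of 26 uninjured cells (7.69%). The 7 capillary genes, all ranked, had a median of -0.42 (0.24 in male cells), with 1 called higher, Tfrc, 0 lower and Spock2, Car4, Rgcc and Mfsd2a between -0.94 and -0.42 on the log2 ratio scale, though Mfsd2a was at 0.88 in male cells.

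Some tip cell genes had higher levels in the injured cells, in part through 1 cell. Of 9 ranked members 6 were higher, where 5.38% of all ranked genes were, and 0 lower. Of the 6, Adm, Pgf and Apln were below 50 CPM in uninjured cells and were ranked only through their injured level, and Col4a1, Col4a2 and Sparc are also counted in the basement membrane list below. The list median was 1.28 over 23 members. With members that had no UMI in 1 condition set at their bound, the median was 0.44. Adm, the vessel-active peptide adrenomedullin, had 102 UMIs in 25 of 71 injured cells (120 CPM) and 0 in uninjured cells, at least 4.25-fold higher. Pgf, a VEGF family ligand, had 95 UMIs in 9 cells (112 CPM) against 0, at least 3.96-fold higher. Apln, the peptide apelin of tip cells, had 150 UMIs in 11 cells (177 CPM) against 2 UMIs in 1 cell (18.9 CPM), a ratio of 9.38 (2.55 to 78.2), while its log2 ratio in astrocytes was -1.63. Much of this came from 1 injured cell. That cell, with 24496 gene UMIs or 2.89% of the total, held 122 of 150 Apln, 70 of 95 Pgf, 42 of 102 Adm and 207 of 899 Cxcl12 UMIs, and 15 of 40 UMIs of Angpt2, the antagonist ligand of the Tie2 receptor. Without the cell with most UMIs of each gene the log2 ratios were 2.14 for Apln, 2.01 for Pgf and 3.05 for Adm. Angpt2 was at 47.2 and 9.43 CPM, below the level for ranking. In male cells the log2 ratio of Adm was 1.76, that of Pgf 0.42 and the list median 0.57. Apln had no UMI in the male endothelial cells of either library, so its difference could not be checked there. Esm1 and Plvap, also on the list, had 4 UMIs each in 1 injured cell and 0 in the uninjured library, and the Esm1 UMIs were those of a cell of another class. The VEGF and Tie list had a median of 0.11, with log2 ratios of the receptors Kdr at -0.52, Tek at -0.25 and Tie1 at -0.14, and Pgf was its only ranked member past 2-fold.

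**Figure D2:**
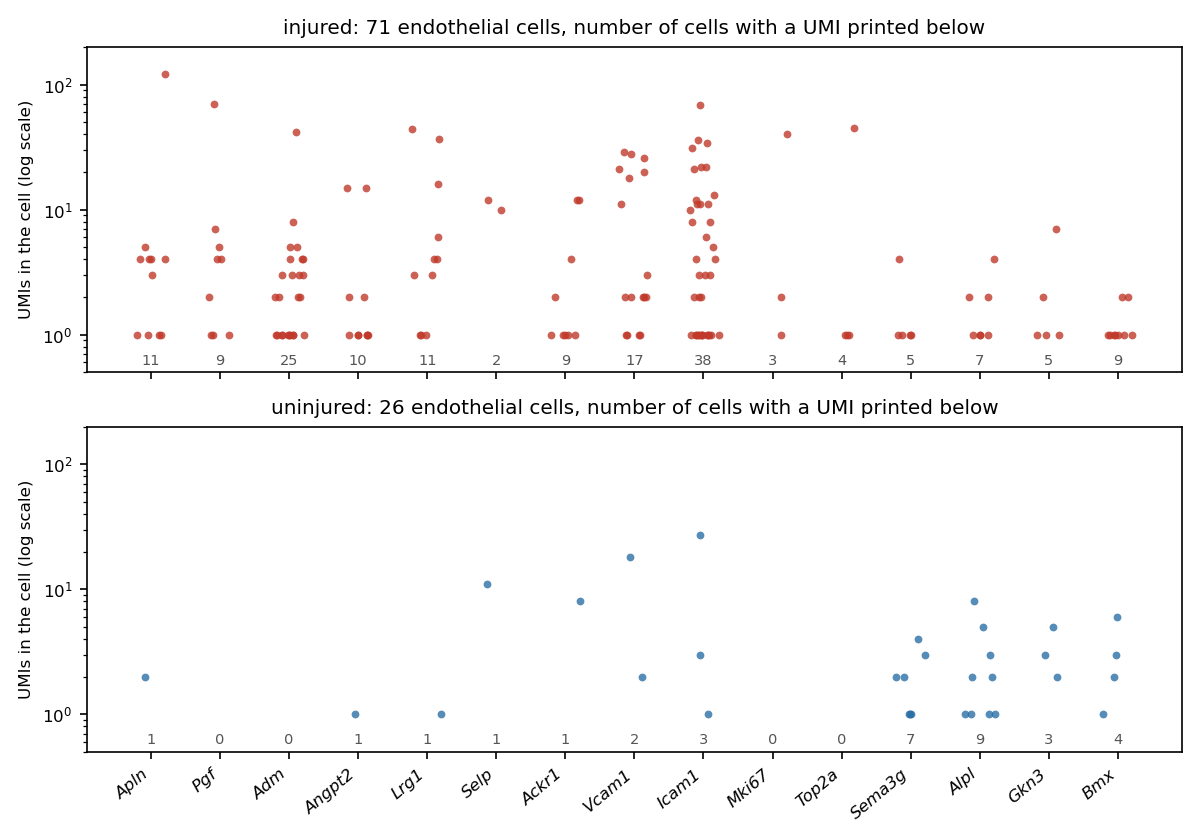
UMIs of 15 genes in each endothelial cell of the injured (71 cells, above) and uninjured library (26 cells, below) on a log axis, with only cells that have a UMI drawn and their number printed under each gene. Single cells stand out in Apln (122 UMIs), Pgf (70), Mki67 (40) and Top2a (45), whereas Adm and Icam1 are spread over 25 and 38 injured cells.

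Several basement membrane genes had higher levels in the injured library. Of 14 ranked members 6 were higher, Lamc1 and Nid1 among them only through their injured level, and 0 lower, and the median was 0.84 over 18 members, 0.61 without the cells of other classes, and 0.27 with members at 0 in 1 condition set at their bound. Without the cells of other classes 5 of 13 were higher, where 5.43% of all ranked genes were. Col4a1 and Col4a2, the chains of type IV collagen, were at 786 and 452 CPM in injured cells and at 274 and 198 CPM in uninjured cells. Col4a1 was found in 64 of 71 and 13 of 26 cells, with a ratio of 2.87 (1.98 to 4.32). Sparc, a collagen-binding matrix protein, was at 3553 and 1462 CPM in 70 and 26 cells, a ratio of 2.43 (2.07 to 2.87). Fn1, fibronectin, was at 1145 and 500 CPM, Lamc1, the laminin gamma chain, at 117 and 37.7 CPM, and Nid1, which links laminin to collagen, at 93.2 and 18.9 CPM. None of these rested on 1 cell, since the highest cell held from 6.94% of the Sparc to 19.0% of the Nid1 UMIs. In male cells Col4a1 (1.23), Sparc (1.12), Nid1 (1.19) and Lamc1 (1.11) stayed above 1 and Col4a2 (0.89) and Fn1 (0.86) did not. Lama4, Hspg2 and Itga6 lay between -0.04 and 0.31. Fn1 was higher in astrocytes too, at 32.5 and 0.206 CPM.

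**Figure D3:**
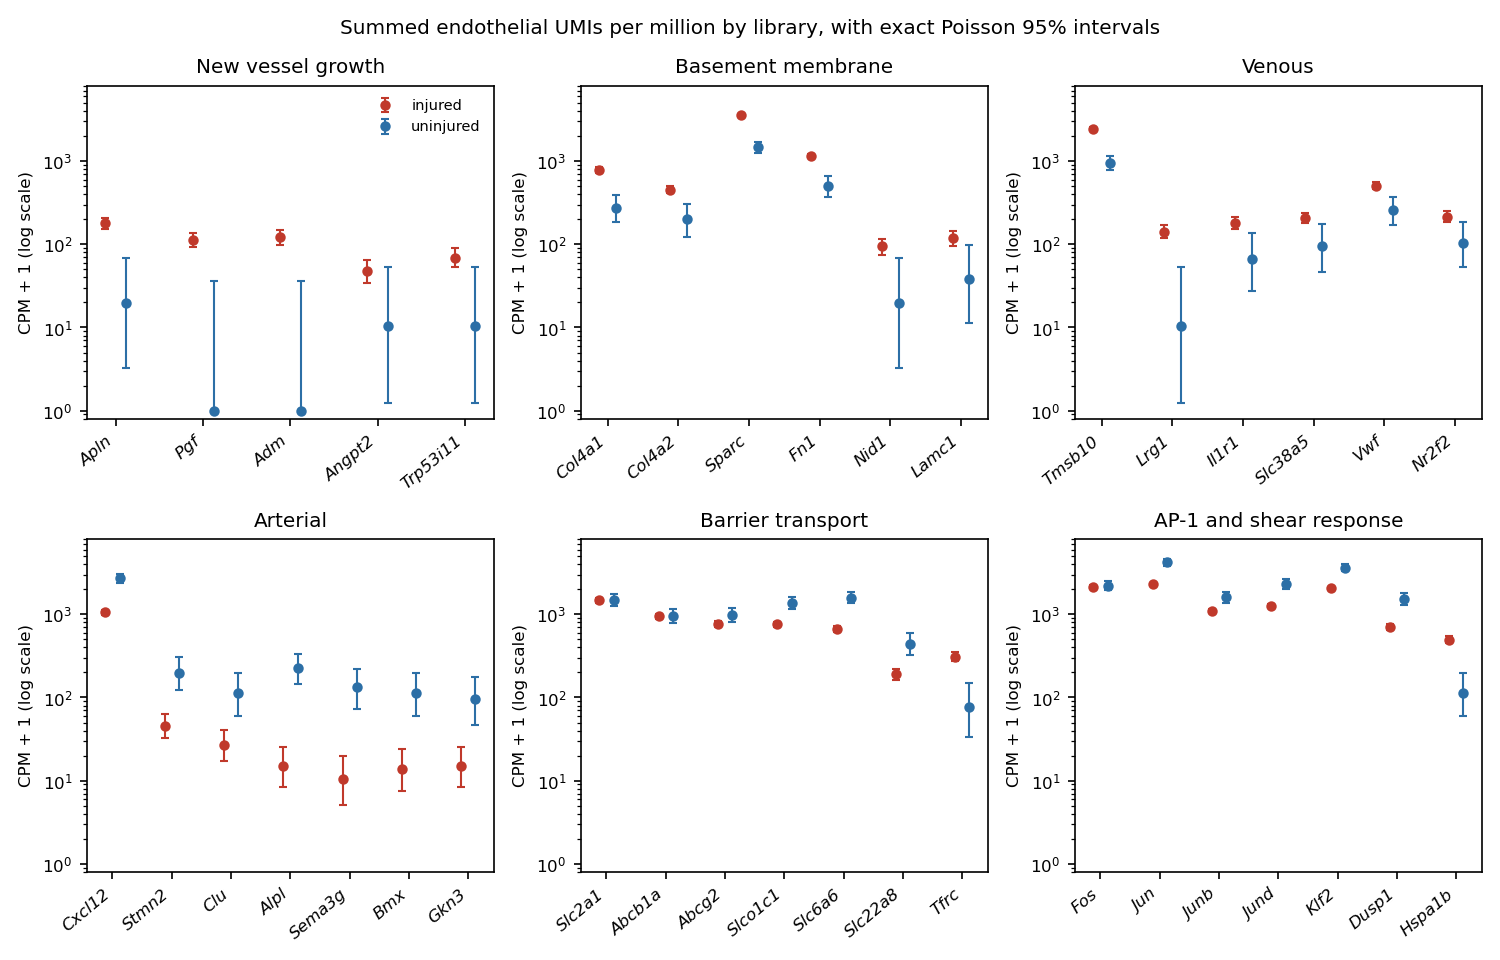
CPM + 1 (log axis) of named genes in injured (red) and uninjured (blue) endothelial cells, 1 library each, with exact Poisson 95% intervals of the summed UMIs. The tip cell (new vessel growth), basement membrane and venous genes drawn lie higher and the arterial genes drawn lower in the injured library, while Slc2a1 (1465 and 1490 CPM) and Fos (2134 and 2207 CPM) nearly coincide in the panels of transporters and AP-1 genes.

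Transporters of the barrier were mostly near even. Of 23 ranked members 2 were higher and 3 lower, beside 5.38% higher and 6.45% lower among all ranked genes. The median was -0.04, and 18 did not reach 2-fold. Slc2a1, the glucose transporter of the barrier, was at 1465 and 1490 CPM, a ratio of 0.983 (0.832 to 1.17), and Abcb1a, the P-glycoprotein efflux pump, at 946 and 962 CPM, a ratio of 0.983 (0.799 to 1.22). Abcg2, another efflux pump, was at 769 and 981 CPM. Tfrc, the transferrin receptor that carries iron into cells, was the furthest member above, with 262 UMIs in 53 injured cells (309 CPM) and 8 UMIs in 6 uninjured cells (75.5 CPM), a ratio of 4.1 (2.05 to 9.59). It was at 440 CPM in male and 223 CPM in female injured cells. Slc6a6, the taurine transporter, was at 674 and 1585 CPM (ratio 0.425, 0.357 to 0.508) but had a log2 ratio of -0.42 in male cells, and went the other way in astrocytes (1.26). Slc22a8, an organic anion transporter, was at 189 and 443 CPM and Lrp8, a lipoprotein receptor, at 47.2 and 113 CPM, and in male cells their log2 ratios were -0.96 and -0.57. Tight junction genes had 0 of 7 ranked members past 2-fold and a median of -0.43, which was -0.05 without the cells of other classes. Tjp1, a scaffold protein, had a log2 ratio of 0.47, Ocln (occludin) at -0.07 and the adhesion molecule Esam at -0.73. The Wnt and barrier list had 0 higher and 2 lower of 14 ranked members, beside 6.45% lower among all ranked genes, and a median of -0.50. The 2 were Sox17 and Tspan12, a tetraspanin of the Wnt co-receptor complex (81.4 and 226 CPM, log2 ratio -0.94 in male cells). Lef1, a nuclear effector of the pathway, was at 491 and 660 CPM. Genes of caveolae had 0 of 5 ranked members past 2-fold and a median of -0.14, with Cav1 at 432 and 396 CPM. Ly6a was at 2541 and 3217 CPM.

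Genes shared by all endothelium were near even as well, with a median of -0.23 over 20 ranked members, of which 2 were higher and 0 lower. Among all ranked genes 5.38% were higher and 6.45% lower. Ctla2a, a protease inhibitor that endothelial cells express strongly, had 2405 UMIs in 66 injured cells (2837 CPM) and 84 UMIs in 18 uninjured cells (792 CPM), a ratio of 3.58 (2.88 to 4.51). Ecscr, a surface protein of endothelial cells, was at 348 and 94.3 CPM, a ratio of 3.69 (1.98 to 7.77). Both remained above 1 on the log2 scale in male cells, with 1.49 and 1.39, and under each of the other alternatives run for these genes. Among 20 ranked endothelial transcription factors 0 were higher and only Sox17 was lower. Klf2, which responds to shear stress of the blood flow, was at 2058 and 3651 CPM (log2 ratio -0.82), and Mecom, a factor with a role in arterial endothelium, at 976 and 538 CPM (0.85). The TGF-beta and BMP list had 0 of 10 ranked members past 2-fold and a median of -0.22.

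AP-1 genes, which code for rapidly induced transcription factors, were abundant in endothelial cells of both conditions. The AP-1 list had 0 of 7 ranked members past 2-fold, all of them between -0.88 and -0.05, and a median of -0.55. Fos was at 2134 and 2207 CPM, Jun at 2297 and 4226 CPM and Atf3 at 503 and 736 CPM. In astrocytes of the same libraries the list median was 2.38, with Fos at 586 and 17.2 CPM. The part of dissociation and sorting in these levels was not tested. In male cells the endothelial AP-1 median was -0.06. The list of 10 other immediate early and stress genes had a median of -0.28, with 2 members higher and 1 lower. This stood beside 5.38% higher and 6.45% lower among all ranked genes. Hspa1b, a heat shock protein, was among the higher (493 and 113 CPM, ratio 4.36, 2.47 to 8.5), as was Nr4a1 (88.5 and 28.3 CPM, from 75 and 3 UMIs), but the log2 ratio of Nr4a1 was -0.61 in thinned cells and 0.39 as a mean over cells. Dusp1, a phosphatase that ends MAP kinase signals, was lower (698 and 1528 CPM). Its log2 ratio was -0.34 in male cells and -0.94 without the cells of other classes.

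Inflammatory lists held genes in both directions. Leukocyte adhesion genes had 0 higher and 2 lower of 8 ranked members, Selp and Alcam, beside 6.45% lower among all ranked genes, and a median of -0.19. Neither direction was stable, since Alcam was at 0.90 in male cells and Selp at 1.16 without its top cells, where the list median was 0.49. Icam1, which binds leukocyte integrins, had 366 UMIs in 38 injured cells (432 CPM) and 31 UMIs in 3 uninjured cells (292 CPM), of which 27 lay in 1 cell, and its log2 ratio without the top cell of each library was 2.89. Vcam1 was at 201 and 189 CPM, and Sele had 14 UMIs in the injured and 0 in the uninjured library. Among cytokines and their receptors, 2 of 6 ranked members were higher, Cxcl1 and Il1r1, and 1 was lower, Cxcl12, with a median of 0.51. This stood beside 5.38% higher and 6.45% lower among all ranked genes. Cxcl1, a neutrophil chemokine, was at 215 and 84.9 CPM, but at 152 and 97.8 CPM without the cells of other classes. The monocyte chemokines Ccl2 and Ccl7 had 40 and 64 UMIs in 4 injured cells and 0 in uninjured cells, and 1 and 2 UMIs without the cells of other classes. In the NF-kB and STAT3 list 3 of 8 ranked members were higher, Lrg1, Lcn2 and Timp1, where 5.38% of all ranked genes were. These 3 were below 50 CPM in uninjured cells and were ranked only through their injured level. In the same list 1 member was lower, and the median was 0.31. Lcn2, an iron-binding acute phase protein, was at 97.9 and 28.3 CPM (83 and 3 UMIs) in 22 cells and 1 cell, and at -0.12 in male cells. Timp1, a metalloproteinase inhibitor, was at 94.4 and 9.43 CPM with 80 injured UMIs, of which 15 were left without the cells of other classes. Socs3, the feedback inhibitor of STAT3, was lower in endothelial cells (81.4 and 198 CPM) and higher in astrocytes (61.8 and 1.17 CPM), and its endothelial log2 ratio was -0.60 in male cells.

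In the interferon list 0 of 10 ranked members were higher and 1 was lower, the GTPase gene Iigp1, where 6.45% of all ranked genes were lower, and the median was -0.53. Among all ranked genes 2242 of 3845 were below 0. Ifitm3, an antiviral membrane protein, was at 1979 and 1962 CPM, though it was higher in astrocytes (log2 ratio 6.09). Of 7 ranked MHC class I genes 0 were higher and 2 were lower, Tap2 and Psmb9, which serve peptide transport and the immunoproteasome. This stood beside 6.45% lower among all ranked genes, and the median was -0.63. Of the 2, 1 was below 50 CPM in injured cells and was ranked only through its uninjured level. In male cells Tap2 was at -1.43, Psmb9 at -0.90 and Iigp1 at -0.57, and without the cells of other classes Iigp1 was at -0.997. H2-K1 was at 538 and 840 CPM and B2m at 711 and 840 CPM. In the coagulation list 1 of 6 ranked members was higher, Plaur, the urokinase receptor (106 and 37.7 CPM), ranked only through its injured level. This stood beside 5.38% higher among all ranked genes, and the median was 0.61. In the metal and hypoxia list 2 of 8 ranked members were higher, where 5.38% of all ranked genes were, and the median was -0.02. The 2 were Adm, ranked only through its injured level, and Ldha, the lactate dehydrogenase (407 and 179 CPM, ratio 2.27, 1.43 to 3.82). Slc2a1 and Mt1 (401 and 491 CPM) were not called. The Ly6 list had 0 of 2 ranked members past 2-fold and a median of -0.34.

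The cell cycle genes Mki67 and Top2a came mainly from 1 cell. An injured cell with 32161 gene UMIs held 40 of 43 Mki67 and 45 of 48 Top2a UMIs, and neither gene had a UMI in the uninjured library. The 2 ranked members of the proliferation list, Hmgb2 and Stmn1, had log2 ratios of 0.57 and 0.53. The list median of 1.16 was 0.16 with genes at 0 set at their bound and 0.09 with cells thinned to 1000 gene UMIs.

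**Figure D4:**
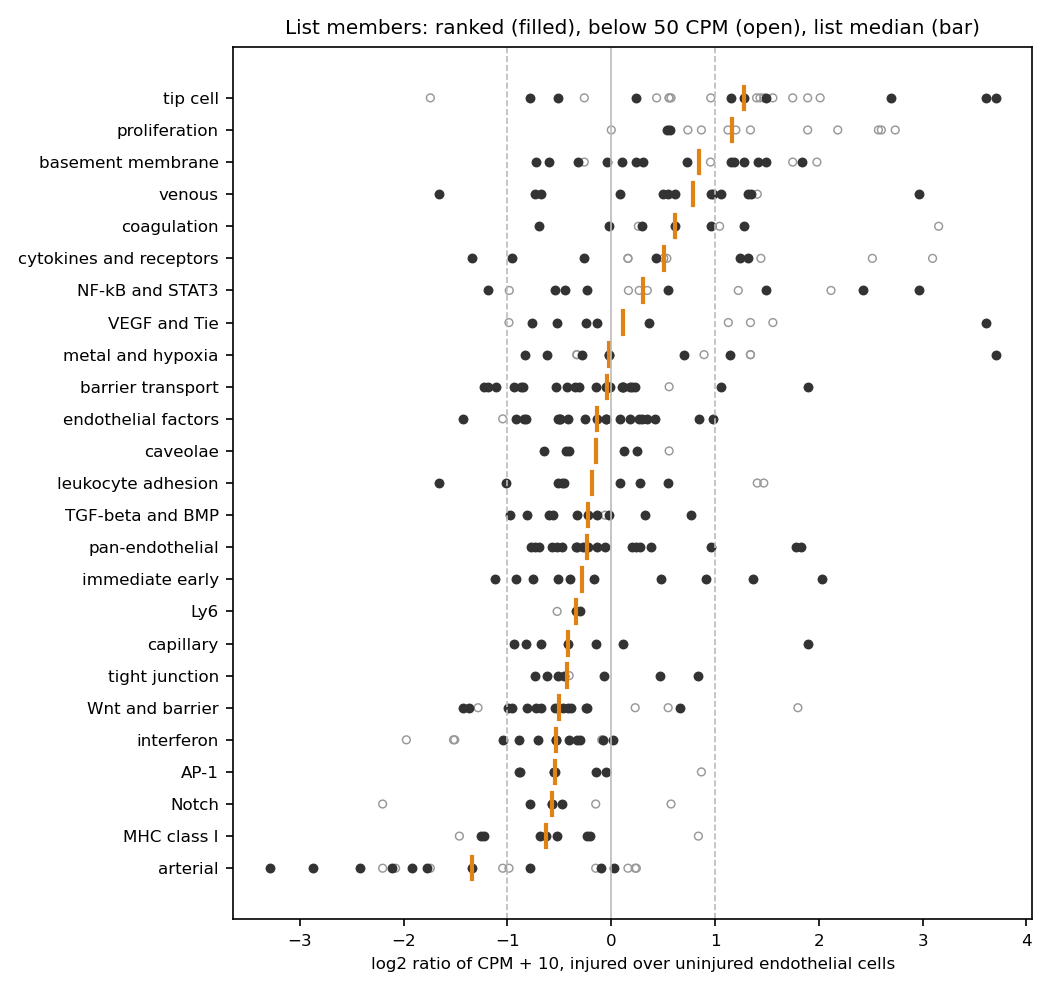
Each row is a gene list and each point the log2 ratio of 1 member, injured over uninjured, filled for ranked genes (mean of 50 CPM or more) and open for the others. Orange bars mark list medians, from 1.28 for tip cell genes to -1.34 for arterial genes, and dashed lines mark 2-fold.

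The enhancer barcodes gave a second readout in the same cells. Each enhancer drove a fluorescent reporter whose transcript carried a designed barcode of 24 variable bases in a pair of blocks around a constant block of 20 bases. The barcodes with a UMI in endothelial cells are shown as listed among the designed oligos, 5′ to 3′, with the variable blocks in capitals, because the counts below rest on telling these letters apart. M5, M8 and M24 are candidate injury-response enhancers, listed as IREN5, IREN8 and IREN24, and A1 and A5 are control enhancers. The match of the M features to the listed names rests on their shared numbers.
M5: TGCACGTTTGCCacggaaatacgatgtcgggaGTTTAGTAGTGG
A1: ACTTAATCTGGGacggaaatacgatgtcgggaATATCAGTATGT
A5: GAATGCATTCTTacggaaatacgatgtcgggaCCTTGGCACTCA
M8: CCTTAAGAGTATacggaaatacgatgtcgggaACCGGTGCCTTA
M24: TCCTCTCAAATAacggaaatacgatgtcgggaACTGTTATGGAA
Over the 10 pairs of these barcodes, 16 to 23 of the 24 variable bases differed. The study reported that pooled virus packaging left many barcodes joined to another enhancer, and that correct pairs were likelier to be detected. The counts below are thus counts of barcodes, each named by the enhancer it was designed with.

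Injured endothelial cells held 158 barcode UMIs of 5 enhancers, or 186 CPM, counted like the genes against the gene UMIs, and 54 of 71 cells had at least 1. M5 had 59 UMIs in 33 cells (69.6 CPM, interval 53.0 to 89.8), A1 had 59 UMIs in 31 cells, A5 had 20 in 18 cells (23.6, 14.4 to 36.4), M8 had 13 in 10 cells (15.3, 8.16 to 26.2) and M24 had 7 in 7 cells (8.26, 3.32 to 17.0). Set against injured astrocytes, the endothelial rate was 0.789 for M5 (0.585 to 1.05), 0.786 for A1 (0.583 to 1.04), 0.654 for A5 (0.385 to 1.06), 0.722 for M8 (0.365 to 1.32) and 0.583 for M24 (0.221 to 1.3), so none of the 5 intervals excluded equal rates. Equal rates are not shown by this, since all 5 ratios lay below 1. Summed over all detected barcodes, injured astrocytes stood at 250 CPM, above the 186 CPM of the endothelial cells. The ratios include the cells led by other lists, and ratios without those cells are not given. Of the 59 A1 UMIs, the fibroblast-led cells held 6 each, and the cells led by red cell and microglia genes 1 each. M8 stood lower than in fibroblasts (ratio 0.382, 0.18 to 0.776). With cells thinned to 1000 gene UMIs, M5 was found in 8.7% of endothelial cells (6 of 69, 3.26 to 18.0%), 8.01% of astrocytes and 7.48% of microglia. Against microglia the endothelial rate of M5 was 0.898 (0.651 to 1.23). The intervals of the M5 share overlapped among endothelial cells, astrocytes (5.58 to 11.1%) and microglia (3.28 to 14.2%). Whether these counts come from activity of an enhancer in endothelial cells was not tested, and they are not read as such. The share of free barcode RNA in them was not tested.

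Uninjured endothelial cells held 1 barcode UMI, of A5 (9.43 CPM, 0.239 to 52.6). The 0 UMIs of M5 allow up to 28.3 CPM against a floor of 3 counts, below the interval in injured cells. In uninjured astrocytes neither M5 nor the control A1 had a UMI, while in injured astrocytes they stood at 88.2 and 88.5 CPM. Uninjured astrocytes had 847 A5 UMIs (58.2 CPM). The endothelial rate of A5, from 1 UMI, was 0.162 of the astrocyte rate (0.0041 to 0.905). Uninjured microglia had A5 at 124 CPM and fibroblasts at 57.2 CPM. Against fibroblasts the endothelial ratio was 0.165 (0.00396 to 1.04). With 106007 gene UMIs in the uninjured endothelial cells, no finer difference was detectable at this depth.

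**Figure D5:**
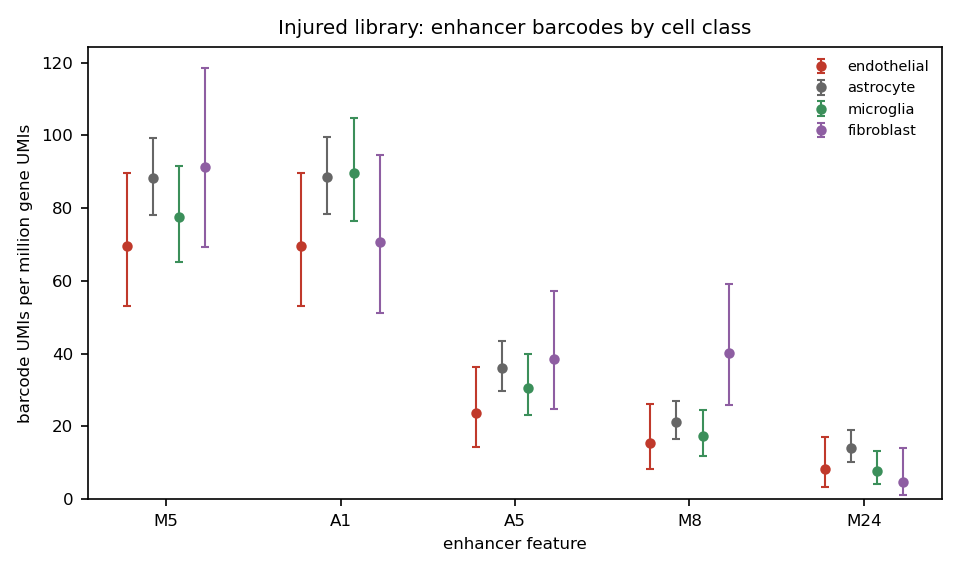
Barcode UMIs per 1000000 gene UMIs (linear axis from 0) of 5 enhancers in 4 cell classes of the injured library, with exact Poisson 95% intervals. Endothelial cells lie at 69.6 for M5 and A1, where astrocytes lie at 88.2 and 88.5, and the intervals of these classes overlap for all 5 enhancers.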

How the data were processed

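Single cells were sequenced with 10x 3' v3.1 chemistry, with 25% of the cDNA used to enrich the enhancer barcodes. The deposited matrices hold counts, UMIs per cell of 32287 gene features and of the barcodes, made by the authors with Cell Ranger (7.1.0 in the file headers, 8.0.1 in the submitters' processing notes) on mm10. The members, lists and tests were chosen with earlier results of these data known.

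The UMI limits of the study's methods (500 and 50000) were applied to the gene features. UMIs were summed over the cells of each class and library. Genes were ranked at a mean of 50 CPM or more, 10 CPM were added before the log2 ratio, and a ratio of 1 or more, or -1 or less, was called. Astrocytes, mural cells and fibroblasts needed a UMI in at least 3 of their markers and more UMIs of them than of any other class's list, and microglia at least 5 C1q UMIs. Intervals were exact (Poisson, Clopper-Pearson, conditional binomial) at 95%. With 1 library per condition no test was made. List medians cover members with a UMI. Shares stated at 1000 gene UMIs come from cells thinned to that depth, which left out 2 injured endothelial cells. Other numbers of cells with a UMI are as sequenced and not matched for depth. The median depth was 8304 in injured and 3138 in uninjured endothelial cells. Named were the 15 highest and lowest ranked genes, list members with a log2 ratio of at least 1 or at most -1 or with 100 CPM or more in a condition, the rule genes, the reporter and the detected enhancers; other named genes were chosen after their values were seen. A few genes that meet this rule are not reported here. Of 32285 Ensembl gene IDs, 99.8% matched GENCODE M21 (GRCm38), which gave coordinates. Alternatives changed the choice of cells, depth, sex, the added CPM, the level filter and the weight of single cells. Scripts were tested on simulated data. Python 3.11.15, numpy 2.4.6, scipy 1.17.1 and pandas 2.3.3 were used.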

Additional observations from a re-analysis of the deposited data

Results flagged for a closer look

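Several named genes differed in opposite directions in endothelial cells and in the astrocytes of the same libraries, each by at least 2-fold, and none of these differences between the cell classes was tested. The log2 ratio of Apln was 2.70 in endothelial cells and -1.63 in astrocytes, and 1 injured endothelial cell held 122 of its 150 UMIs. No male endothelial cell had a UMI of Apln. Clu was at -1.78 in endothelial cells and 2.42 in astrocytes, Stmn2 at -1.92 and 1.86, Slc6a6 at -1.22 and 1.26, and Socs3 at -1.19 and 2.68. Of the 3845 genes ranked in endothelial cells, 3 were higher there and lower in astrocytes, and 14 were lower there and higher in astrocytes. No level filter was applied to the astrocyte values, where Slc6a6, for example, was at 16.4 CPM after injury and 1.03 CPM without.

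Of the 40 injured cells removed at the upper UMI limit, 5 had at least 3 of the 7 endothelial markers, and 4 of these were led by fibroblast genes. The uninjured library had no such cell.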

How the results depend on the processing

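The share of endothelial cells moved by less than its interval in all 16 recomputed values, and 280 recomputed list medians stayed within the counting error of the reported value, while 45 did not. The cause of the changes below was not tested. With no upper limit on gene UMIs, 369 genes were higher and 470 lower, and the list medians were -0.74 (pan-endothelial), -0.67 (endothelial factors), -0.81 (tight junction), -0.58 (barrier transport), -0.98 (Wnt and barrier), -0.97 (capillary), 0.29 (venous), -0.58 (immediate early), -0.99 (interferon), -1.11 (MHC class I), 1.96 (proliferation) and -0.64 (TGF-beta and BMP). With cells thinned to 1000 gene UMIs, 479 genes were higher and 899 lower, and medians were -0.071 (pan-endothelial), 0.14 (endothelial factors), -0.92 (arterial), 1.44 (venous), 0.41 (tip cell), 0.81 (NF-kB and STAT3), -0.025 (immediate early), 0.42 (basement membrane), -1.02 (interferon) and 0.089 (proliferation). In male cells alone 396 genes were lower, and medians were 0.13 (endothelial factors), -0.40 (arterial), 0.24 (capillary), 0.57 (tip cell), -0.059 (AP-1) and 0.16 (immediate early). With 50 CPM added, 98 genes were higher and 78 lower, with medians of -0.77 (arterial) and 0.56 (tip cell), and with 1 CPM added medians were 2.18 (tip cell), 1.12 (cytokines and receptors) and 3.74 (proliferation). Without the level filter 1215 were higher and 915 lower, and at 200 CPM or more 60 and 35. Without the cell with most UMIs of each gene 131 were lower, and medians were 1.39 (venous), 0.73 (VEGF and Tie), 0.49 (leukocyte adhesion), 0.98 (NF-kB and STAT3) and 0.31 (immediate early). With at least 2 markers per cell medians were -0.46 (pan-endothelial), -0.38 (endothelial factors) and -0.30 (barrier transport), and with at least 4 markers -0.092 (pan-endothelial). As a mean over cells they were -0.077 (pan-endothelial) and -0.84 (arterial), and without the cells of other classes -0.046 (tight junction). Centring the ratios on the median ranked gene was added after seeing the data and moved no count by over 1.5 times.

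Of the named genes with a log2 ratio of at least 1 or at most -1, the direction turned in 14 recomputed values. These were, in male cells, Alcam (0.90), Angpt2 (-0.31), Lcn2 (-0.12) and Lsamp (0.28), and, in thinned cells, Angpt2 (-2.28), Col1a2 (-2.28), Dcn (-3.12), Lgals1 (-1.76), Nr4a1 (-0.61) and Trpm3 (0.23). The others were Col1a2 (-0.35) and Dcn (-1.53) with at least 4 markers, Npas3 (0.050) with at least 2 markers, and Selp (1.16) without its top cells. Of the 52 named genes nearer to 0, 26 changed sign in at least 1 recomputed value, among them Mfsd2a (0.88), Hmgb2 (-0.71) and Vcam1 (-0.79) in male cells, Ackr1 (1.94) without its top cells, and tdTomato-WPRE (-0.38) without the cells of other classes. The rate of M24 was 17.6 CPM with at least 2 markers and 17.0 in male cells, and that of A5 in uninjured cells was 0 in male cells and without its top cell.

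No paired analysis was possible because injured and uninjured cells came from 1 gene expression library each, and for the same reason no library was left out. The uninjured endothelial cells held 106007 gene UMIs, so 3 counts there stand for 28.3 CPM, and lower levels were not detectable at this depth.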
